A study of Homo sapiens with 4 samples.

Results

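Chromosome 19 carries several long arrays of zinc finger genes, and DNA methylation in 4 of these clusters was described here at single-CpG resolution in HUDEP-2 cells. The clusters were chosen by position alone: all non-overlapping 1 kb windows with at least 3 CpGs listed in every library, in 4 intervals of chromosome 19 in hg38. The interval called 19p12 below begins at position 19600001 and spans 4500 kb, 19q13.12 begins at 36000001 and spans 2000 kb, 19q13.41 begins at 52000001 and spans 1400 kb, and 19q13.43 begins at 57200001 and spans 1400 kb. The rule gave 8060 of the 9300 windows in the intervals, out of 2431792 such windows on chromosomes 1 to 22 and X, with 3448 in 19p12, 1896 in 19q13.12, 1372 in 19q13.41 and 1344 in 19q13.43. The 45180 other windows of chromosome 19 with at least 3 shared CpGs served for comparison. The annotation matched the name of the intervals: 146 of the 197 protein-coding genes that start in them (74.1%) have a zinc finger gene symbol, against 119 of 1279 (9.30%) on the rest of the chromosome.

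HUDEP-2 is an immortalised human erythroid progenitor line that makes adult haemoglobin and matures towards red cells in culture. Whole-genome bisulfite sequencing was done on 4 libraries, 1 per group: non-differentiated untreated cells, and cells differentiated in the presence of the DMSO vehicle, a DNMT1 inhibitor or an EED inhibitor. Per the labels, compounds were added at a final 0.1% DMSO while the cells still expanded and were kept on through a growth stage of 4 days and a maturation stage of 2 days. All media contained doxycycline and erythropoietin. The names and doses of the inhibitors are not given in the sources used here, and the non-differentiated library differs from the DMSO library both in differentiation and in the vehicle. The title of the series names BCL11A, a repressor of fetal globin, and the labels say that treated cells raised fetal haemoglobin expression.

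Most genes in these clusters encode KRAB zinc finger proteins. Each protein reads a DNA sequence with a tandem array of zinc fingers, nearly always encoded by a single long last exon, and its KRAB domain recruits TRIM28, which brings in the H3K9 methyltransferase SETDB1. Many of the proteins silence transposable elements, the genes multiplied by tandem duplication, and their zinc finger exons are themselves known to carry the H3K9me3 mark, to which ZNF274 recruits SETDB1. DNMT1 copies CpG methylation to the new strand at replication, and EED is the subunit of the Polycomb complex PRC2 that binds H3K27me3.

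The sequences below show the kinds of DNA that were measured. The first is a stretch of the zinc finger exon of ZNF91, a repressor of SVA elements, at chr19:23359511-23359678 on the minus strand, read 5′ to 3′ in the direction of transcription. Capitals mark the 16-base motif ACNGGNGANAANCCNT, which encodes the linker between adjacent fingers.
ZNF91: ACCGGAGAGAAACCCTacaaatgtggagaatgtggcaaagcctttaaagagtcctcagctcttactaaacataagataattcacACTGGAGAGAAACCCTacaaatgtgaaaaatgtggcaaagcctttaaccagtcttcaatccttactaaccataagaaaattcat
The stretch shown holds a single CpG. The motif, searched on both strands, was present in 288 of the 9300 cluster windows (3.10%) and in 220 of 49134 windows of the rest of the chromosome (0.448%). A match says only that these letters are present.

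The next pair compares 300-base stretches of a CpG-rich and a CpG-poor zinc finger exon, which lay near the 2 ends of the range of methylation left with the DNMT1 inhibitor. Capitals mark CpGs. ZNF837 lies at chr19:58368157-58368456 on the minus strand, and ZNF880 at chr19:52384957-52385256 on the plus strand.
ZNF837: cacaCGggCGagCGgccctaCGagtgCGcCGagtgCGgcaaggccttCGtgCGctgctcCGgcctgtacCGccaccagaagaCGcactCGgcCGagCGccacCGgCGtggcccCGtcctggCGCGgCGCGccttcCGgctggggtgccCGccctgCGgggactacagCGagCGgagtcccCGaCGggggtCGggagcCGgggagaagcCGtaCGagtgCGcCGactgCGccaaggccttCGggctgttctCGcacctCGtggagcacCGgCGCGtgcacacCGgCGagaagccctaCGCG
ZNF880: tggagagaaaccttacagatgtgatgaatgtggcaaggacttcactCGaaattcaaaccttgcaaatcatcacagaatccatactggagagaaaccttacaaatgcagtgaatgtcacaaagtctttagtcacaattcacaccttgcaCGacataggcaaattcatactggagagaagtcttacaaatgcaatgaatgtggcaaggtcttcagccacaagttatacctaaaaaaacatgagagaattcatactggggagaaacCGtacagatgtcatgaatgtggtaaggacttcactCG
The ZNF837 stretch has 46 CpGs, all measured, with levels of 96.9% in non-differentiated, 96.9% in DMSO, 73.5% in DNMT1 inhibitor and 95.3% in EED inhibitor cells. The ZNF880 stretch has 4 CpGs, with 38.1%, 34.98%, 6.63% and 34.8% in the same order.

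The last pair are the 250 bases before the start of 2 genes, from RefSeq promoters on hg38, where 127 of the 146 zinc finger genes had an entry. ZNF460 lies at chr19:57279732-57279981 and ZNF534 at chr19:52428898-52429147, both on the plus strand, with CpGs in capitals.
ZNF460: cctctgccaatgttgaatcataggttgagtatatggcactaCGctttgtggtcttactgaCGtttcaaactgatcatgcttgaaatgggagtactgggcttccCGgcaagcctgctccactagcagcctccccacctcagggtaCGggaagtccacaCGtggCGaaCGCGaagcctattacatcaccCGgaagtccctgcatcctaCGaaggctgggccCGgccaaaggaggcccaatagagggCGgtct
ZNF534: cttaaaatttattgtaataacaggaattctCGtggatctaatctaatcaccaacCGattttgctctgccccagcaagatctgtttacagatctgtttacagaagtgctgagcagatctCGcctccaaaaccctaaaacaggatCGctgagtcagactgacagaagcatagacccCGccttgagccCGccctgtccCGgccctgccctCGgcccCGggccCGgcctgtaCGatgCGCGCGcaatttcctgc
The 12 CpGs of the ZNF460 promoter carried 0.565% methylation in DMSO and 0.269% in EED inhibitor cells. Summed over the 12 CpGs, none of 295 read counts was methylated in non-differentiated cells, which allows a level of up to 1.02%. None of 392 was methylated with the DNMT1 inhibitor, which allows up to 0.765%. A read that spans several of these CpGs is counted at each, so both limits can be too low. The 14 CpGs of the ZNF534 promoter carried 59.4% in non-differentiated, 56.1% in DMSO, 29.7% in DNMT1 inhibitor and 56.9% in EED inhibitor cells.

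Levels are the percent of reads that were methylated, summed over the CpGs of a region that all 4 libraries list. The windows held 106683 such CpGs, and the mean coverage of a CpG was 35.5 to 38.1 reads per library in the clusters and 33.8 to 35.3 in the rest of chromosome 19. Of the 1240 windows left out, 528 have fewer than 3 CpGs in the reference and 712 have more but were not covered at the minimum of 10 reads in every library. These absences were most frequent in 19p12, where 1052 of 4500 windows were left out. Windows just inside the minimum, with 3 shared CpGs (393 windows), had a DMSO level of 40.9%, and windows just outside it, with 2 (308 windows), had 34.5%. With 1 library per group no difference has a replicate check. Two-sided Fisher's exact tests on reads, with Benjamini-Hochberg adjustment over all windows, compare 2 libraries and not 2 conditions. Intervals at 95% (Wilson intervals for levels) describe counting error only and not the spread between cultures. A read is counted at every CpG it spans, and reads carry no molecular identifiers, so these intervals are too narrow.

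In DMSO-treated differentiated cells the cluster windows were methylated at 63.3% and the rest of the chromosome at 67.9%. The clusters were not alike: 19p12 stood at 52.8%, 19q13.41 at 67.6%, 19q13.12 at 68.9% and 19q13.43 at 69.5%. The median window had 48.1% in 19p12 and 82.9% in 19q13.43. In 19p12 only 8.18% of windows were at 80% or above, against 54.4% in 19q13.43, 32.8% in the rest of chromosome 19 and 23.3% over the autosomes. A large share of 19p12 is thus at intermediate levels, with 79.5% of its windows between 20 and 80%. Intermediate windows were also the majority elsewhere, with 61.6% in the rest of chromosome 19 and 68.3% over the autosomes. The 19p12 cluster was also the lowest in the other libraries: it stood at 53.8% in non-differentiated and 50.2% in EED inhibitor cells, and the other 3 lay between 66.0 and 70.6%.

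**Figure D1:**
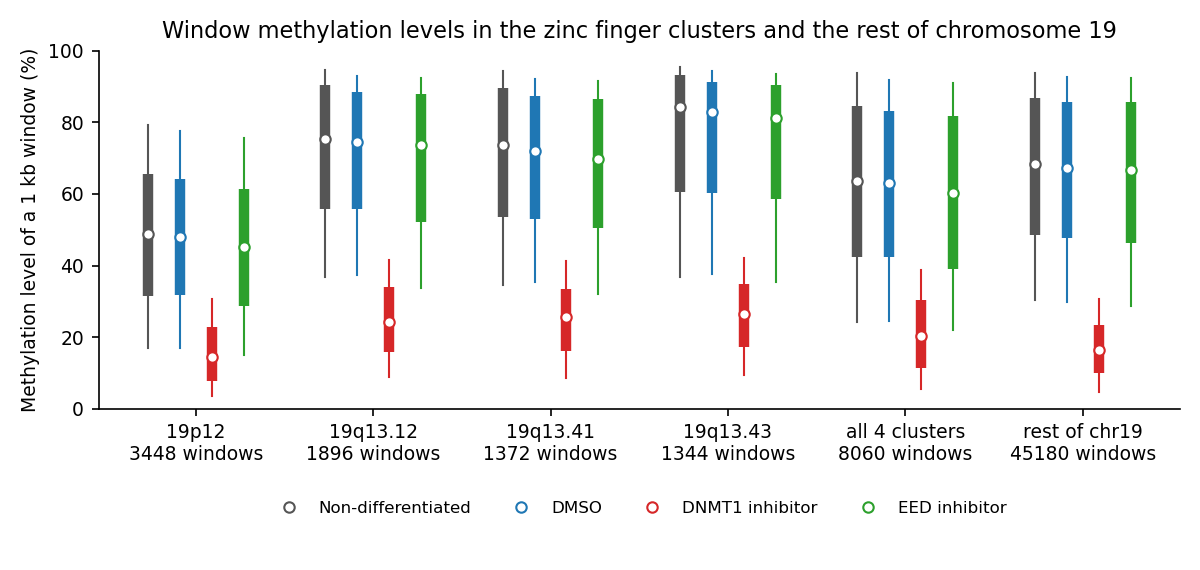
Methylation level of 1 kb windows (%, vertical axis) in each cluster, all 4 clusters and the rest of chromosome 19, for the 4 libraries. Open points are medians, thick bars span the 25th to the 75th and thin lines the 10th to the 90th percentile of windows. The 19p12 windows sit lowest in every library, and the DNMT1 inhibitor medians of 24.3% to 26.6% in the other 3 clusters stand above the 16.3% of the rest of the chromosome.

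With the DNMT1 inhibitor the clusters lost most of their methylation but kept more of it than the rest of chromosome 19. The level went from 63.3% to 23.8% in the clusters and from 67.9% to 19.2% in the rest. The remaining level was 26.1 to 26.4% in the 3 clusters of 19q13 and 19.02% in 19p12, close to the rest. The share of the DMSO level that was kept was 37.6% (95% interval 37.5 to 37.7) in the clusters and 28.3% in the rest. It was 36.0% in 19p12, 38.2% in 19q13.12, 38.7% in 19q13.41 and 37.8% in 19q13.43, and 27.9% over all other autosomes. Thus 19p12, with the lowest level of the 4, kept nearly the same share as the other 3. By Fisher's exact test 6561 of 8060 cluster windows were lower with the DNMT1 inhibitor, by the rule used for all calls here, 25 points or more apart and an adjusted p below 0.01. That is 81.4%, where 81.3% of all windows genome-wide and 88.0% of the rest of chromosome 19 were lower by the same rule. No cluster window was higher, and genome-wide 0% were. With each window's reads divided by its number of CpGs the shares were 71.8% in the clusters and 66.1% genome-wide, and with at least 10 CpGs per window 89.9% and 92.6%, so the order of the shares depended on the setting. The share called lower was 69.7% of windows in 19p12 and 88.9% to 91.1% in the other clusters.

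The higher remaining methylation was spread over the windows and did not rest on a few. Among windows at 20% or more in DMSO, the median share kept was 33.8% over 7459 cluster windows and 25.2% over 42643 windows of the rest. More than 50% was kept in 490 cluster windows (6.57%) and in 618 windows of the rest (1.45%). The level with the DNMT1 inhibitor was still 50% or more in 1.25% of cluster windows and in 0.356% of the rest. In 100 kb bins, the clusters had a median of 36.8% kept over 88 bins, from 25.8 to 50.4%, and the rest 27.3% over 476 bins. Of the 88 cluster bins, 87 were above the median of the rest and 69 above its 90th percentile of 34.3%. Of the 50 bins of the chromosome with the highest share kept, 35 lay in the clusters.

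**Figure D2:**
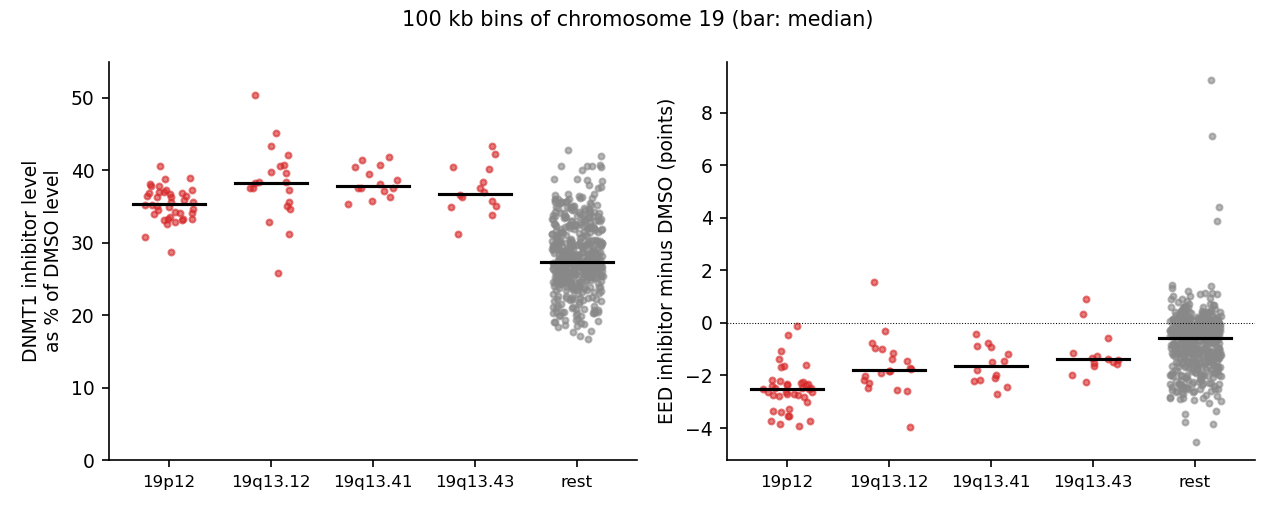
Each point is a 100 kb bin with at least 200 shared CpGs, by cluster and for the rest of chromosome 19; the bars are medians. Left, DNMT1 inhibitor level as a percent of the DMSO level: the cluster medians of 35.4 to 38.3% lie above the 27.3% of the rest. Right, EED inhibitor minus DMSO in percentage points: the median is -2.52 in 19p12 and -0.590 in the rest.

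The step at the cluster borders differed from border to border. At the start of 19q13.12 the 3 bins outside kept 23.9, 25.3 and 25.7%, the first bin inside 25.8%, the second 31.3% and the third 45.2%. At the end of 19q13.41 the first and second bins outside kept 40.7 and 41.9%, as much as the last bin inside with 39.5%, so the higher share ran on past the interval there. The 3 bins before 19q13.43 likewise kept 34.9 to 36.7%. The bins just outside and inside kept 36.8 and 37.6% at the start of 19q13.41, and 33.0 and 36.4% at the end of 19p12. At the start of 19p12 these were 32.3 and 34.9%, and at the end of 19q13.12 they were 32.5 and 32.9%. The interval limits were thus not the limits of the higher values at several of these borders.

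The number of CpGs and the starting level went with the share kept, so the comparison was repeated within classes of both. Cluster windows had a median of 11 shared CpGs, windows of the rest 16. When windows were sorted by their level in the non-differentiated library (5 classes of 20 points) and by their number of CpGs (4 classes), the clusters kept more in 20 of 20 classes, by 1.85 to 14.7 points. The smallest difference was for windows of 3 to 4 CpGs starting at 20 to 40%, and the largest for windows of 20 or more CpGs at the same start, with 37.9% against 23.1%. Among windows starting at 80% or more, those with 3 to 4 CpGs kept 35.4% in the clusters and 26.8% in the rest, and those with 20 or more kept 43.5% and 31.4%. In the clusters the share kept was higher with each step in CpG number in 4 of the 5 starting classes. In the lowest starting class it was not, with the lowest value, 21.3%, at 5 to 9 CpGs. In the rest of chromosome 19 the share did not rise at every step in any starting class. The highest value of each class was at 20 or more CpGs. Windows of the rest starting at 40 to 60% kept 24.3, 24.2, 23.5 and 25.6% with increasing CpG number. With the rest weighted to the classes of the cluster windows, the difference was 10.5 points instead of 9.32.

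**Figure D3:**
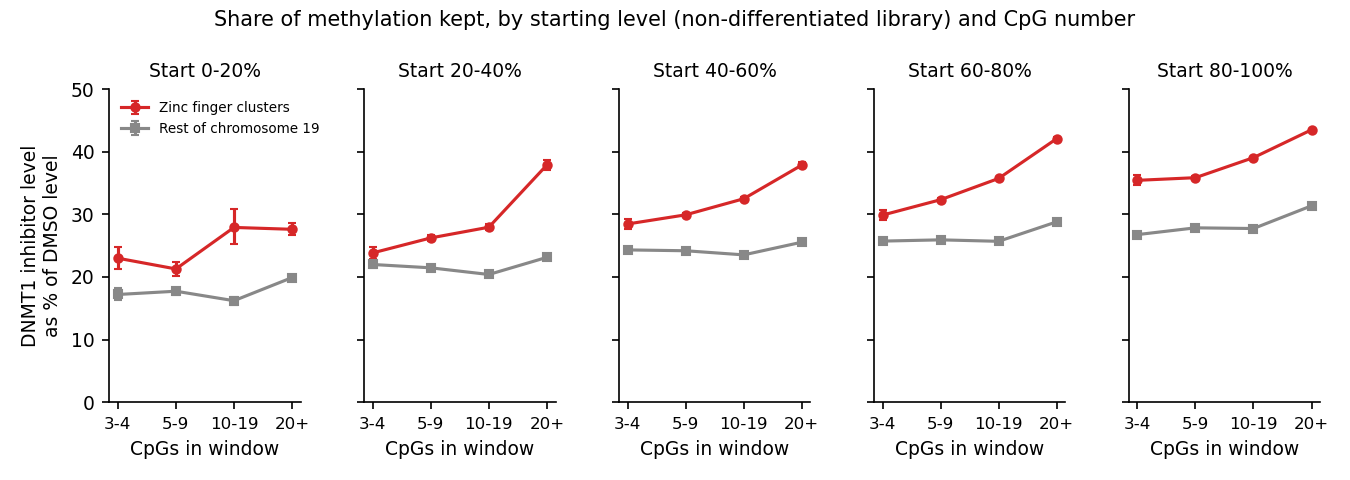
DNMT1 inhibitor level as a percent of the DMSO level (vertical axis) against the number of shared CpGs in a window, in 5 panels by the starting level in the non-differentiated library. Red circles are cluster windows, grey squares the rest of chromosome 19, bars are 95% intervals from read counts. The red points lie above the grey ones in all 20 classes, by up to 14.7 points.

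Repeated sequence moved with the share kept. Windows in which over 50% of 50-base stretches recur on chromosome 19 kept 53.5% in the clusters (110 windows) and 33.8% in the rest (2046 windows). Windows with at most 10% of such stretches kept 36.8% (6604 windows) and 27.7% (37235 windows), and without the mostly repeated windows the difference between clusters and rest was 9.09 points. Cluster windows with the linker motif kept 39.6% (248 windows) and those without 37.5%, but the 153 windows with 3 or more matches kept 37.2%. On the rest of the chromosome the linker windows kept 37.7% (215 windows), close to the cluster value, against 28.3% without the motif.

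The gene context was examined next, since the arrays mix gene bodies, promoters and the DNA between genes. In the clusters the share kept was 41.5% in the zinc finger exons, 39.5% in introns of zinc finger genes, 38.7% in their promoters, 37.1% between genes, 33.1% in promoters of other genes and 33.5% in bodies of other genes. Summed by gene, the exons kept more than all windows of their cluster only in 19q13.43, with 47.1% against 37.8%. They kept 33.3% against 36.0% in 19p12, 33.9% against 38.2% in 19q13.12 and 38.3% against 38.7% in 19q13.41. Genes of 19q13.43 held 1457 of the 2811 exon CpGs, so the summed exon value leans on that cluster. On the rest of chromosome 19, zinc finger exons kept 40.7%, introns of zinc finger genes 35.6% and their promoters 36.0%, while bodies of other genes kept 28.3% and DNA between genes 27.5%. A high share therefore also went with zinc finger genes outside the intervals: windows of the rest that overlap such a gene or its promoter kept 36.1% (2576 windows), and all others 27.9%. The stretches between genes, which hold 44.7% of the CpGs of the clusters, differed as well, with 37.1% against 27.5%. Between genes means outside the transcript used for each protein-coding gene and outside its promoter, so lncRNAs and pseudogenes are counted there.

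The longest coding exon, called the zinc finger exon here, was measured at 5 or more CpGs in 136 of the 146 genes. Whether it holds the finger array was not checked against protein sequences. Its level over all 136 was 79.0% in non-differentiated, 77.4% in DMSO, 32.0% in DNMT1 inhibitor and 75.8% in EED inhibitor cells. By Fisher's exact test 124 exons (91.2%) were lower with the DNMT1 inhibitor by the same rule, where 85.0% of the longest coding exons of all genes were. All 27 exons measured in 19q13.12 and all 48 in 19q13.43 were lower, 29 of 32 in 19q13.41 and 20 of 29 in 19p12, where 5 exons were already under 20% in DMSO. Exons were assigned by the start of their gene, and those of ZNF254, ZNF615 and ZNF765 themselves lie outside the intervals. The median share kept was 36.7% over the 105 exons with 10 or more CpGs and a DMSO level of at least 20%, and 31.7% over the exons of all genes that met both conditions. It was 34.3% over 588 exons of other genes of chromosome 19 outside the clusters, and 38.1% over 22 exons of genes in the clusters that are not zinc finger genes. It was 34.9% for 105 zinc finger exons elsewhere on chromosome 19 and 36.2% for 201 on other chromosomes, and these differences were not tested.

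The share kept ranged from 20.6 to 70.4% among the 105 exons with 10 or more CpGs. The 5 highest all lay in 19q13.43, near the end of the chromosome, and had 38 to 177 CpGs. ZNF837 went from 95.7% (94.96 to 96.3) in DMSO to 67.3% (65.9 to 68.7) with the DNMT1 inhibitor, at 177 CpGs, and stood at 94.4% in non-differentiated and 94.99% in EED inhibitor cells. ZNF497 went from 74.2 to 49.1%, and ZSCAN18 from 85.2 to 56.0%. ZNF324B went from 95.9 to 61.9%, and MZF1, a myeloid zinc finger factor, from 70.1 to 41.9%. The DNMT1 inhibitor library was lowest in all 5. The other 3 libraries lay close together except in MZF1, where they stood at 74.1% in non-differentiated, 70.1% in DMSO and 78.3% in EED inhibitor cells. At the other end, ZNF729 went from 22.03% (18.8 to 25.6) to 4.53% (3.11 to 6.55), ZNF880 from 30.3 to 6.47%, ZNF90 from 40.8 to 9.16%, ZNF571 from 38.8 to 8.78% and ZNF257 from 41.0 to 9.93%. These 5 exons had 12 or 13 CpGs and started at 22.03 to 41.0%, below the 77.4% of all exons together.

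**Figure D4:**
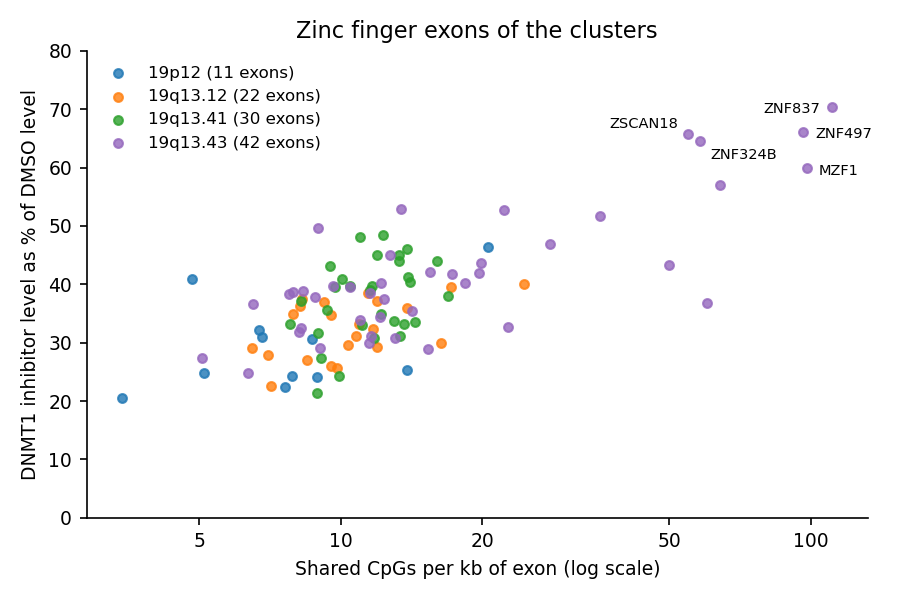
Each point is the longest coding exon of a zinc finger gene of the clusters with 10 or more shared CpGs (105 exons), by CpGs per kb (log axis) and DNMT1 inhibitor level as a percent of the DMSO level, coloured by cluster. The named exons, picked for the highest share, lie at over 50 CpGs per kb and keep 59.9 to 70.4%. Also over 50 CpGs per kb, ZNF324 keeps 57.0% and ZNF446 only 36.7%. The 11 exons of 19p12 lie between 20.6 and 46.4%.

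The share kept went with CpG density in zinc finger genes and others alike. Exons with under 10 CpGs per kb kept 33.1% in cluster zinc finger genes, 32.1% in other zinc finger genes and 27.0% in genes that are not zinc finger genes. With 10 to 20 CpGs per kb these were 38.1, 34.4 and 28.4%. With 20 or more they were 56.7% (14 exons), 47.1% (133 exons) and 37.7% (8284 exons). The 14 exons ranged from 32.7% in ZNF135 to 70.4% in ZNF837. Of their 940 CpGs, ZNF837, ZNF497 and MZF1 hold 177, 144 and 140, so these genes weigh heavily in the summed value. This class has no upper limit, and density was not matched within it. By distance from the exon's start, summed over the cluster genes, the share was 38.4% in the bin 2000 bp before it and 40.7% from -1000 to -751 bp. It was 38.8% in the first 250 bp, 42.6% at 1250 to 1499 bp and 35.5% at 2500 to 2749 bp after the start.

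Among genes of known roles, the exon of ZNF91 stood at 54.6% in non-differentiated, 49.7% in DMSO, 12.3% in DNMT1 inhibitor and 45.2% in EED inhibitor cells. ZNF93, which represses L1 elements, had the lowest of these exons, with 11.1, 15.7, 4.28 and 8.82% in the same order at only 5 CpGs. ZNF208 (19.02% in DMSO, 5.46% with the DNMT1 inhibitor) and ZNF99 (30.0 and 10.2%) of 19p12 were low as well. The exon of ZNF274, whose protein binds zinc finger exons, was at 96.9, 96.3, 38.8 and 95.9%. ZNF83 kept 48.5% of its DMSO level of 94.9%, ZNF808 41.3% of 91.6%, ZNF587 40.3% of 94.9%, ZNF417 39.7% of 89.5% and ZNF814 38.9% of 91.5%. In 19q13.12, ZNF568 kept 37.4% of 50.5%, ZNF420 29.6% of 80.3% and ZNF382 27.0% of 64.9%, and ZNF461 went from 79.1 to 27.7%. ZNF677, ZNF304, ZNF671, ZNF665, ZSCAN4, ZNF154 and ZNF528 kept 38.7, 37.8, 37.4, 34.8, 32.9, 30.7 and 24.3%. In every one of these exons the DNMT1 inhibitor library was the lowest. The exons of ZNF43 and ZNF569, and both exon and promoter of ZNF85, had too few shared CpGs.

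Promoters of the zinc finger genes, from 1000 bp before to 500 bp after the start, were lightly methylated as a group, and so were promoters of all genes. Over all genes the summed level was 26.3% in DMSO, and 7420 of 18118 promoters were under 20%. Of the 140 zinc finger promoters measured, 58 were under 20% in DMSO, 81 between 20 and 80%, and 1 at 80% or above. Their summed level was 26.4% in non-differentiated, 24.9% in DMSO, 9.68% in DNMT1 inhibitor and 25.1% in EED inhibitor cells. It was 36.8% in DMSO in 19p12, 30.8% in 19q13.41, 22.8% in 19q13.43 and 15.0% in 19q13.12, so the cluster with the lowest level over all windows had the highest at its promoters. By Fisher's exact test 16 promoters (11.4%) were lower with the DNMT1 inhibitor by the same rule, where 43.7% of all promoters were. The count was 3 (2.14%, against 18.5% of all promoters) when the reads of a promoter were divided by its CpG number, and 5 (3.57%, against 22.3%) for 250 bp on either side of the start. The starting level limits these counts, since a promoter under 25% in DMSO cannot be 25 points lower. At 50% or more in DMSO were 10 of the 140 promoters, against 4934 of 18118 promoters of all genes. The median share kept, over the 82 promoters at 20% or more in DMSO, was 37.8%. It was 24.4% over 9390 promoters of all genes. Other zinc finger genes had 35.2% on chromosome 19 (67 promoters) and 27.5% on other chromosomes (145 promoters). These comparison sets hold fewer promoters than the 20% limit alone gives.

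**Figure D5:**
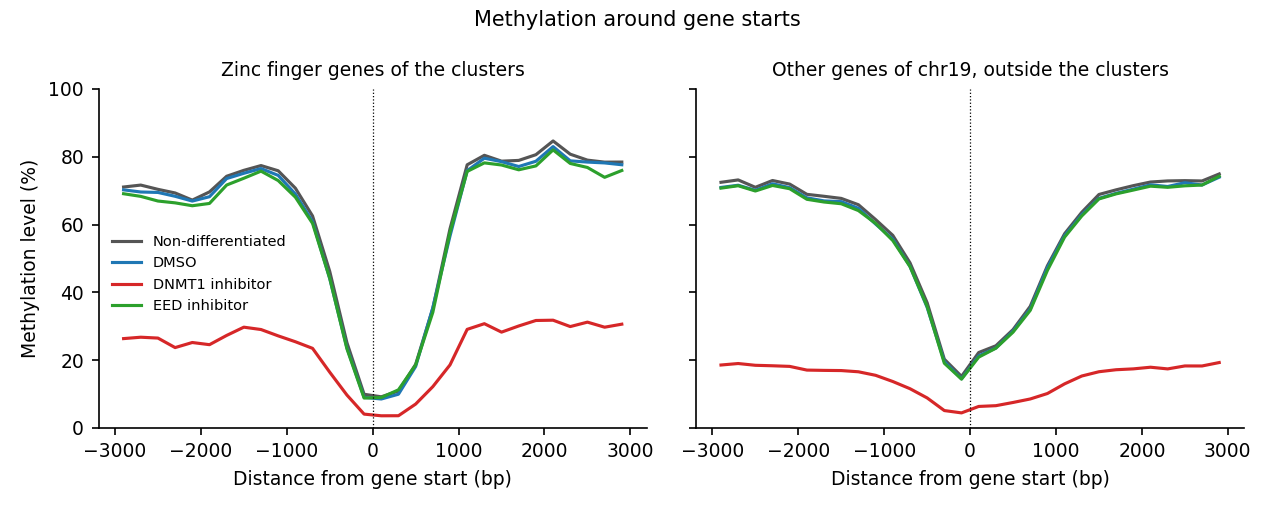
Methylation level (%) in 200 bp bins by distance from the gene start (bp), summed over genes, for the 4 libraries; left, zinc finger genes of the clusters, right, other genes of chromosome 19 outside them. Both show a trough at the start, with lowest DMSO values of 8.51% in the zinc finger genes, just after the start, and 14.5% in the other genes, just before it, and the DNMT1 inhibitor line lies higher on the left away from the start.

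The 5 promoters with the highest DMSO level were ZNF587B, ZNF714, ZNF534, ZNF83 and ZNF708. ZNF587B stood at 90.1% in non-differentiated, 92.0% in DMSO, 30.2% in DNMT1 inhibitor and 87.6% in EED inhibitor cells. ZNF714 stood at 71.9, 72.3, 37.8 and 65.1% in the same order. ZNF534 had 71.5, 69.2, 33.2 and 67.1%. The DNMT1 inhibitor library was far below the other 3 in each. ZNF83 had 53.0, 63.05, 16.8 and 55.2%, and ZNF708 had 60.3, 61.9, 23.1 and 49.9%. Of the genes of known roles, ZNF91 had a promoter that went from 42.1% in DMSO to 26.5%, keeping 63.0%, while its 250 bases before the RefSeq start were at 7.62 and 5.63%. ZNF569 kept 59.4% of 35.4%, ZNF154 49.8% of 42.1%, ZNF677 47.4% of 34.6% and ZNF208 43.5% of 42.5%. The promoter of ZSCAN4, a gene of the early embryo, went from 59.9 to 21.2% and was called lower. ZNF274, ZNF420, ZNF382, ZNF304, ZNF43, ZNF587, ZNF93, ZNF461, ZNF417 and ZNF568 were all under 20% in DMSO. ZNF99, ZNF528, ZNF665, ZNF671, ZNF808 and ZNF814 were at 24.9 to 31.7% and kept 23.1 to 39.6%.

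A list of 23 genes of the KRAB zinc finger and maintenance pathway was read at the promoter, where 19 could be measured. By Fisher's exact test 6 of 19 were lower with the DNMT1 inhibitor by the same rule, beside the 43.7% of all promoters, and 9 of the 19 were under 20% in DMSO. The 6 were SETDB1, the H3K9 methyltransferase (44.4 to 17.9%), MPHOSPH8 (30.9 to 5.16%) and TASOR (89.0 to 23.4%) of the HUSH complex, MORC2 (39.2 to 9.56%), UHRF1, which brings DNMT1 to replicated DNA (66.0 to 8.85%), and DNMT3B (79.3 to 7.75%, at 5 CpGs). These levels cover only the CpGs shared by all libraries, which in several promoters were a minority of those listed in any library. The shared CpGs were 16 of 72 in TASOR, 28 of 89 in MORC2 and 38 of 76 in MPHOSPH8. UHRF1 had 42, also a minority, while SETDB1 had 60 of 76 and DNMT3B 5 of 8. The level of a whole promoter was not tested. TRIM28, which lies in 19q13.43, stood at 29.9% in non-differentiated, 31.2% in DMSO, 9.66% in DNMT1 inhibitor and 29.1% in EED inhibitor cells. No promoter of the list was called in the other comparisons. Expression was not measured in these libraries.

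The EED inhibitor library lay slightly below DMSO in the clusters, with a difference of -1.92 points (± 0.0678, counting error), against -0.739 points in the rest of chromosome 19. The difference was -2.61 points in 19p12, -1.60 in 19q13.12, -1.62 in 19q13.41 and -1.17 in 19q13.43. Single windows were lower in 68.0% of the clusters and in 56.3% of the rest, and the difference was more negative in the clusters in 18 of the 20 classes of starting level and CpG number. The classes in which it was not were windows with 20 or more CpGs starting under 40%. Between genes the difference was -2.32 points, in introns of zinc finger genes -1.83 points, and at zinc finger promoters 0.131 points. The DMSO library itself differed by -1.26 points (± 0.0683) from the non-differentiated one in the clusters, and by -1.35 points in the rest, so that the clusters and the rest were 0.0913 points apart there and -1.19 points apart with the EED inhibitor. With 1 library each, the spread between cultures is unknown. Mean coverage in the clusters was 38.1 reads per CpG in the EED inhibitor and 35.5 in the DMSO library, and the part of depth in the difference was not tested.

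By Fisher's exact test 3 cluster windows were lower with the EED inhibitor by the same rule and none was higher, where 0.0266% of all windows were lower and 0.00592% higher. With each window's reads divided by its number of CpGs none of the 3 was called, and genome-wide 0% were lower and 0% higher. With a minimum of 10 points, 55 were lower (0.682%, against 0.166% of all windows) and 5 higher (0.0620%, against 0.0591%). At an unadjusted p under 0.05, 1556 cluster windows (19.3%) differed, against 15.1% in the rest. The first, chr19:21585001-21586000 in 19p12, lies in an intron of the lncRNA ENSG00000268555 on the minus strand and has 23 CpGs. It stood at 52.9% in non-differentiated, 57.6% in DMSO, 11.7% in DNMT1 inhibitor and 25.6% in EED inhibitor cells (adjusted p = 3.06e-29, Fisher's exact test). The other two held few CpGs and passed by little: chr19:37084001-37085000, in an intron of ZNF420, had 3 CpGs and went from 72.7 to 47.4% (adjusted p = 0.00506, Fisher's exact test). The window chr19:21061001-21062000, outside annotated genes, had 4 CpGs and went from 75.6 to 50.3% (adjusted p = 0.00525, Fisher's exact test). No zinc finger exon or promoter of the clusters was called with the EED inhibitor, where 0.0166% of exons were lower and 0.0249% higher, and 0% of promoters were lower and 0.0221% higher.

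Between the DMSO and the non-differentiated library the differences over the cluster windows were small. No cluster window was called against the non-differentiated library by Fisher's exact test, where 0.000864% of all windows were lower and 0.000288% higher. At an unadjusted p under 0.05, 1034 windows (12.8%) differed, against 12.3% in the rest. The difference, DMSO minus non-differentiated, was -1.26 points in the clusters and -1.35 in the rest, from -1.05 in 19p12 to -1.46 in 19q13.12, and 62.1% of cluster windows were lower.

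The 3 cluster windows of 10 or more CpGs with the highest level with the DNMT1 inhibitor were an exon of ZNF837 and a pair of mostly repeated lncRNA introns in 19q13.12. The window chr19:58368001-58369000 lies in the third exon of ZNF837, has 114 CpGs, and stood at 94.5% in non-differentiated, 96.1% in DMSO, 69.1% in DNMT1 inhibitor and 95.2% in EED inhibitor cells. The window chr19:37294001-37295000 lies in an intron of the lncRNA ENSG00000267605, and stood at 92.3, 91.8, 68.3 and 89.4% in the same order. In it 95.2% of 50-base stretches recur on the chromosome and coverage was 61.3 to 75.7 reads per CpG, above the cluster mean. The part of other copies in the value was not tested. The window chr19:36271001-36272000, in introns of LINC00665 and the lncRNA ENSG00000267053, went from 91.8 to 67.3%, with 88.7% of its stretches recurring. In all 3 the DNMT1 inhibitor level was below that of DMSO, with differences of -23.5 to -27.0 points.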

How the data were processed

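The 4 whole-genome bisulfite libraries were made with the Accel-NGS Methyl-Seq kit, per the labels' protocols. The submitters' processing notes name hg38, Trim Galore 0.6.7, cutadapt 4.1, Bismark, Bowtie2 2.1.0 and methylKit; duplicate removal is not given in the sources used here. The deposited tables hold coverage as a count of reads per CpG, strands merged and at least 10, with the percent of C and T, per the file headers. Methylated reads were recovered as coverage times percent, whole within 0.0005 of the coverage. CpGs on chromosomes 1 to 22 and X in all 4 tables were used, at a mean coverage of 27.2 to 29.7 reads per listed CpG, and were placed on genes by GENCODE 44 (the MANE Select or else the canonical transcript). Calls came from Fisher's exact tests over all windows, exons or promoters, in code tested on simulated data (Python 3.11.15, numpy 2.4.6, scipy 1.17.1). Reads of neighbouring CpGs overlap, so these p-values are too small. Zinc finger genes were taken by symbol (ZNF, ZFP, ZSCAN, ZIK, ZIM or MZF). Named genes were a fixed list, the 5 exons with the highest and the 5 with the lowest share kept, the 5 promoters with the highest DMSO level, called windows, and the 3 windows highest with the DNMT1 inhibitor. Members, lists and rules were chosen with earlier results of these data known.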

Additional observations from a re-analysis of the deposited data

How the results depend on the processing

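No paired analysis was possible because each group has 1 library. No difference in level or in the share kept turned its direction. The order of clusters and all windows in the share called lower with the DNMT1 inhibitor did depend on the setting. Counting intervals are narrow, and 42 of the values under an alternative moved past them or, for counts, by over 1.5 times, while 26 did not. With at least 20 reads per CpG, the cluster differences were -40.3 points for the DNMT1 inhibitor and -2.02 for the EED inhibitor against DMSO, with 37.1% kept. As unweighted window means, they were -0.900 for DMSO against non-differentiated, then -39.1 and -2.01, with 35.4% kept and 8.39 points above the rest. With at least 10 CpGs per window, they were -1.37, -40.5 and -1.68, with 38.9% kept and 10.4 points above the rest. Without CpGs over 100 reads, 37.5% was kept, 9.20 points above the rest. Without 19p12 the values were -1.34, -42.5 and -1.48, with 38.2% kept and 9.91 points above the rest. Without 19q13.12 they were -38.3 and -2.04, 37.4% and 9.07. Without 19q13.41 they were -38.99 and -1.997, 37.4% and 9.06. Without 19q13.43 they were -38.5 and -2.08. Kept shares stood 9.75 points above other autosomes, 10.5 above the rest reweighted by class and, as alternatives chosen after seeing the data, 9.09 without mostly repeated windows and 9.74 with zinc finger genes left out of the rest. The count of windows lower with the EED inhibitor was 0 when each window's reads were divided by its CpG number (0% of all windows), 55 with a minimum of 10 points (0.682% of cluster windows, 0.166% of all windows) and 1 with at least 10 CpGs per window (0.0220%, against 0.00138% of all windows). At 10 points, 5 windows were higher with the EED inhibitor (0.0620%, against 0.0591% of all windows) and 3 differed between DMSO and non-differentiated cells (0.0372%, against 0.0186%). The count of windows lower with the DNMT1 inhibitor was 4087 with at least 10 CpGs, of only 4544 windows tested (89.9%, against 92.6% of all windows). Promoters lower with the DNMT1 inhibitor were 3 of 140 with divided reads (18.5% of all promoters) and 5 with 250 bp on either side of the start (22.3% of all promoters).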

Other observations

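Zinc finger genes outside the 4 intervals were measured too. On the rest of chromosome 19 the longest coding exon of 115 zinc finger genes went from 80.4% to 32.7% between the DMSO and the DNMT1 inhibitor library, and 113 were lower by Fisher's exact test under the rule above, beside 85.0% of the longest coding exons of all genes. On other chromosomes 265 such exons stood at 82.2 and 34.04%, and 93.96% of them were lower. Exons of 10606 other genes of other chromosomes stood at 67.4 and 23.6%. Genes in the clusters that are not zinc finger genes had exons at 75.4 and 29.7% (35 genes), 39.4% of the DMSO level. At promoters the zinc finger genes of other chromosomes went from 24.5 to 7.79% (284 genes), against 24.9 to 9.68% in the clusters.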
